A study of Mus musculus with 10 samples.

Results

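Collagens are proteins of the extracellular matrix in which 3 chains wind around each other in a triple helix, and every chain carries long stretches of a repeat of 3 residues that begins with glycine. Collagen genes were taken as all genes of the array with a name of the form Col, a type number, the letter a and a chain number. The name was that in the scanner files, or the current symbol reached through the accession or, for Col6a4, through a synonym. There were 43 such genes among the 27670 genes of the array, and 3 of them, Col26a1, Col6a4 and Col6a6, were reached through the current symbol alone. They fell into 11 fibrillar collagens, 8 basement membrane collagens and 24 others. A further gene, Cert1, matched only through an old name that refers to a collagen chain. It encodes a ceramide transfer protein and was left out.

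The lungs of 10 mice were measured with 1 lung per array, 5 after cigarette smoke exposure and 5 after room air. All were females of the inbred strain BALB/c that had arrived at 6 to 8 weeks of age. Smoke came from 12 filterless reference cigarettes in a whole body chamber, in 2 exposures of 50 minutes a day, 5 days a week over 8 weeks, and controls breathed room air over the same time. The comparison asked which lung genes respond to cigarette smoke exposure.

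Fibrillar collagens form the load-bearing fibrils of the airway wall, vessels and pleura, and type I and type III are the main fibril collagens of the lung. Basement membrane collagens, with type IV as the network former, lie under epithelium and endothelium and form part of the thin barrier between air and blood. The other classes bind to fibrils, form beaded filaments around cells, anchor epithelium to the underlying matrix or span the cell membrane.

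Each array held a red and a green channel. Of 4 genes of the Y chromosome, 3 were high in green and low in red, and Uty was near background in both channels (Ddx3y, processed log2 signal 9.92 ± 0.43 in green and 2.97 ± 1.15 in red, SD, n = 10), whereas the lung gene Sftpc read 21.89 ± 0.27 in red and 15.50 ± 0.40 in green (SD, n = 10). Red was therefore read as the lung of the female mouse and green as a reference common to all arrays. Values below are log2 red over green, called the lung over reference ratio, and a difference is smoke minus room air. Each direction rests on this reading of the channels and on the assignment of the scanner files to samples. A ratio depends on the reference as well as on the lung, so ratios of different probes were not ranked against each other.

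A gene was called expressed when its brightest probe was well above background in red on at least 5 of 10 arrays. This held for 37 of the 43 collagen genes. The other 6 were Col11a1, Col6a6, Col9a1, Col19a1, Col10a1 and Col28a1. No collagen probe was saturated in red. The share of spots well above background in red was 67.8% to 76.7% in the room air arrays, and in the smoke arrays it was 64.9% to 77.5%. Precision is limited by how many arrays there were.

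One array stood apart. Room air replicate 1 lay far from the other 4 room air arrays, by Dixon's ratio above 0.71, in 841 of 19024 expressed genes (4.42%), against 0.431% to 2.30% for the other arrays. It had the lowest ratio of the room air group in 15 of the 37 expressed collagen genes, and in 9 of the 14 expressed fibrillar and beaded filament genes (64.3%). Over all expressed genes its share was 26.0%. Smoke replicate 5 was the lowest of its group in 16 of the 37 expressed collagens (43.2%) and in 7 of the 14 (50%), against 21.6% of all expressed genes, but it lay far from its group in 0.757% of the genes only. For collagen results that turn on room air replicate 1, values without it are given too.

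Cigarette smoke exposure changed 5 of the 43 collagen genes (11.6%), of which 4 fell and 1 rose, at an adjusted p under 0.05 in limma. Over all probes 7.06% passed the same threshold, over all genes 8.23%. Among expressed genes it was 11.9% of the 19024, and 13.5% of the 37 collagens, of which Col24a1 counts as expressed through its smoke arrays. Col17a1, Col5a3, Col5a1 and Col4a1 fell, and Col24a1 rose. With the replicate number, which is also the slide, as a block, 7 collagen genes passed (16.3%), against 13.8% of all genes. Of the expressed genes it was 18.9% of the collagens and 20.0% of all, and the 2 added were Col13a1 and Col4a3, both lower. Without room air replicate 1, 7 passed as well, the 5 above with Col4a3 and Col6a3, while the number of probes called over the whole array went from 2906 to 3660. Over the 10 fits that leave out an array, 2 to 7 collagen genes passed, with Col17a1 and Col24a1 among them each time. Only these 2 passed without room air replicate 2, 3 or 5 or without smoke replicate 1. Ratios of the 2 groups did not overlap in 4 of the 43 genes (9.30%), Col17a1, Col24a1, Col4a1 and Col8a1, against 7.89% of all genes. Among the 37 expressed collagens 12 differed in the same direction on all 5 slides (32.4%), against 31.5% of all expressed genes.

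**Figure D1:**
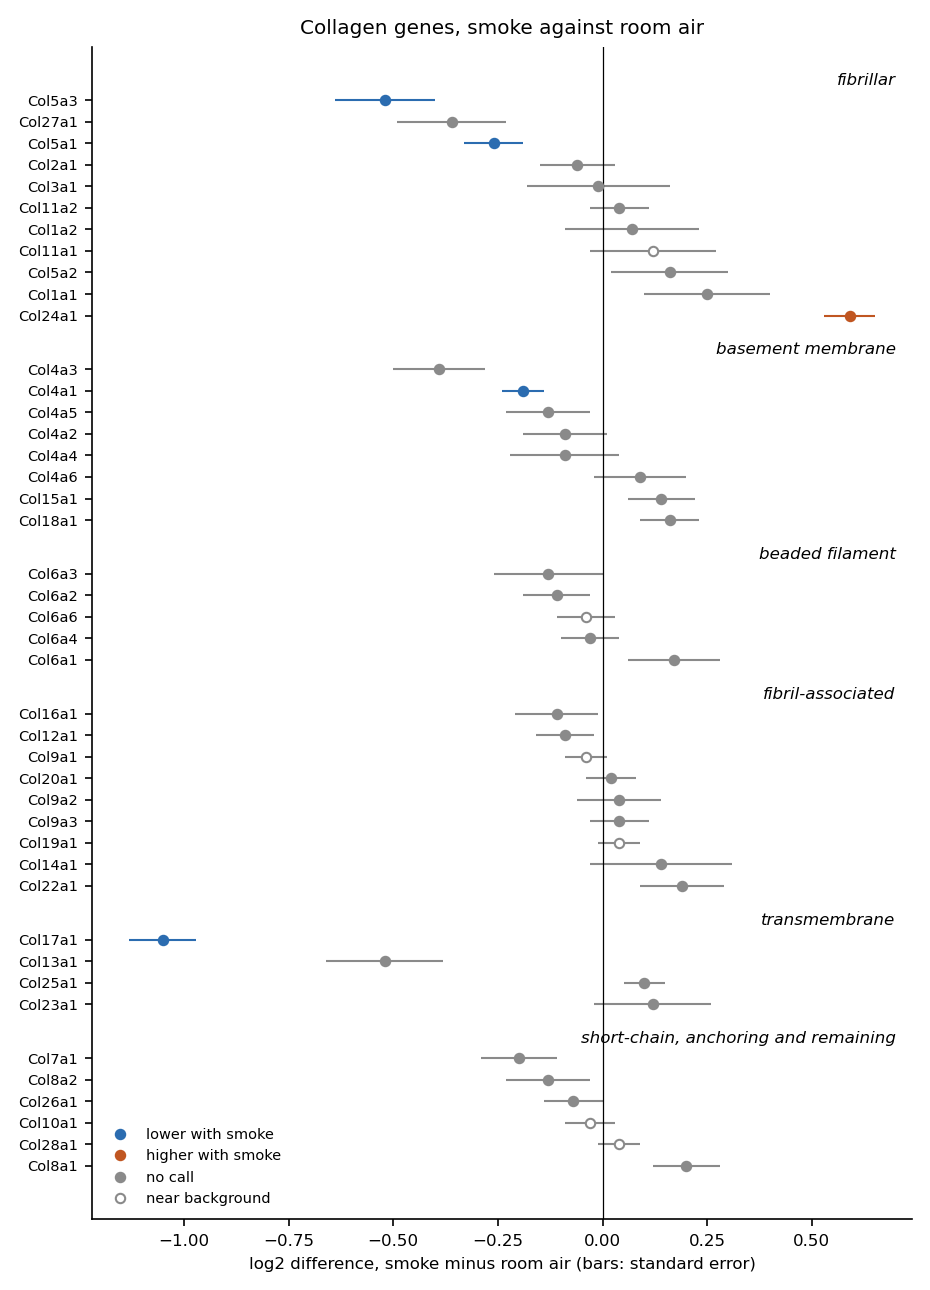
Difference in the log2 lung over reference ratio, smoke minus room air, for the 43 collagen genes by class, with the standard error of limma as bars. Filled points are expressed genes and open points the 6 near background, blue marks the 4 genes that fell and orange the 1 that rose; Col17a1 lies at -1.05 and Col24a1 at 0.59.

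Among the 11 fibrillar collagens, the genes of the type I and type III chains did not pass the test, Col5a3 and Col5a1 of type V fell, and Col24a1 rose. Over the 10 expressed members the median difference was 0.011, beside -0.009 over all expressed genes. Col24a1 counts as expressed through its smoke arrays, so the sign of this median rests on how it is counted. This median was -0.019 with the log ratio of the scanner software, -0.041 and -0.013 with the red channel alone under its 2 scalings, and -0.068 without room air replicate 1. In these settings the median over all probes was -0.019, 0.001, -0.01 and -0.004. The class as a whole had no stable direction. Within the 5 slides the median differences were 0.26, -0.02, -0.04, 0.00 and -0.12, and the slide of room air replicate 1 was the one at 0.26.

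**Figure D2:**
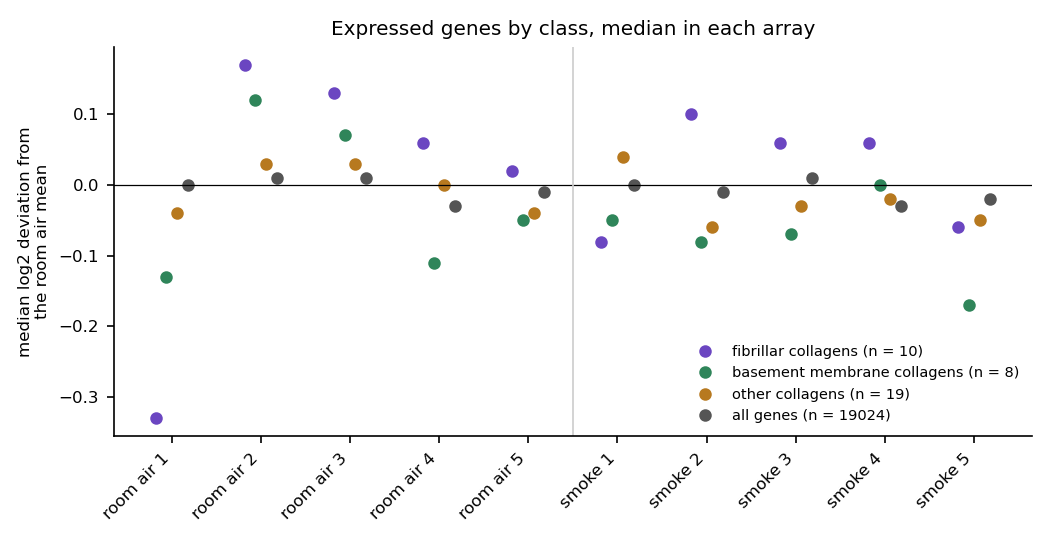
Median log2 deviation from the room air mean in each of the 10 arrays, over the expressed genes of each collagen class and over all expressed genes. The fibrillar collagens of room air replicate 1 lie at -0.33, below the range of 0.02 to 0.17 in the other room air arrays, whereas its median over all expressed genes is 0.00.

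Type I collagen is built from the chains of Col1a1 and Col1a2. The ratio of Col1a1 was -3.33, -2.44, -2.62, -2.77 and -2.72 with room air and -2.53, -2.28, -2.39, -2.61 and -2.81 with smoke. The room air array at -3.33 was below all others, and the remaining arrays of both groups overlapped. The difference was 0.25 (SE 0.15, limma adjusted p = 0.467), and 0.11 without room air replicate 1. For Col1a2 it was 0.07 (SE 0.16, limma adjusted p = 0.911), and -0.08 without that array.

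Col3a1, the single chain of type III collagen, read -2.16, -1.15, -1.10, -1.35 and -1.24 with room air and -1.48, -1.51, -1.30, -1.38 and -1.39 with smoke. Room air replicate 1 was the lowest array of all, and the other 4 room air arrays were at or above the middle of the smoke group. The difference was -0.01 (SE 0.17, limma adjusted p = 0.985) with all arrays and -0.20 (limma adjusted p = 0.0875) without room air replicate 1, so this array decided the value. On slides 2 to 5 the smoke array was lower in each case, with differences of -0.36, -0.20, -0.03 and -0.15, and on the slide of room air replicate 1 the difference was 0.68.

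Type V collagen regulates the diameter of type I fibrils and has 3 chain genes. Col5a3 read -2.05, -1.35, -1.55, -1.43 and -1.51 with room air and -2.27, -1.93, -2.11, -2.12 and -2.05 with smoke. Apart from room air replicate 1, every room air array was above every smoke array. The difference was -0.52 (SE 0.12, limma adjusted p = 0.0228), a 1.43-fold lower ratio, seen on 5 of 5 slides, and -0.64 (limma adjusted p = 0.000207) without room air replicate 1. It was -0.82 with the red channel alone over its 75th percentile (limma adjusted p = 0.0631) and -0.24 as the mean of both probes. The call was lost in 9 of 20 alternatives, and it held in 3 of the 10 fits that leave out an array.

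Col5a1 read -2.69, -2.37, -2.44, -2.42 and -2.54 with room air and -2.86, -2.80, -2.68, -2.66 and -2.75 with smoke. The room air arrays were higher, with replicate 1 alone inside the smoke range. The difference was -0.26 (SE 0.07, limma adjusted p = 0.0408), lower on 5 of 5 slides, and -0.31 (limma adjusted p = 0.00709) without room air replicate 1. The call was lost in 13 of 20 alternatives, and it held in 2 of the 10 fits that leave out an array. Col5a2, the remaining chain, differed by 0.16 (SE 0.14, limma adjusted p = 0.658), and by 0.02 without room air replicate 1. A difference between the chains was not tested.

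The glycine repeat is visible in 3 of the collagen probes. Probes on the array are 60 bases long. A search for the letters GG at every ninth base through a whole probe, as a glycine codon in each group of 3 codons gives, found 3 of the 41174 probes, and all 3 belong to collagen genes. They are the second probes of Col5a1, Col5a3 and Col11a2, shown here 5′ to 3′ with the repeated codons in capitals because they carry the repeat that defines the family:
Col5a1, second probe: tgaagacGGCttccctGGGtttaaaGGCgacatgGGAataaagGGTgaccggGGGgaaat
Col5a3, second probe: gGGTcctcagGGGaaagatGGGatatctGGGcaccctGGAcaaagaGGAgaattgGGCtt
Col11a2, second probe: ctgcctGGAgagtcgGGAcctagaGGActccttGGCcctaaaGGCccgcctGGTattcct

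The helix probe of Col5a1 was well above background in red on all 10 arrays and differed by -0.03 (SE 0.08, limma adjusted p = 0.922), where the brightest probe of the gene fell. The helix probe of Col5a3 was well above background on 3 of 10 arrays only and differed by 0.04 (SE 0.06, limma adjusted p = 0.843). The falls of Col5a1 and Col5a3 therefore rest on 1 probe each. The helix probe of Col11a2 differed by -0.04, beside 0.04 at its brightest probe.

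Col24a1 encodes a fibrillar collagen known from developing bone and cornea. It read -0.03, -0.18, 0.04, -0.16 and -0.10 with room air and 0.51, 0.45, 0.59, 0.54 and 0.42 with smoke. Every smoke array was above every room air array. The probe was well above background in red on 2 of the 5 room air arrays and on all 5 smoke arrays. The difference was 0.59 (SE 0.06, limma adjusted p = 0.000102), a 1.5-fold higher ratio, on 5 of 5 slides. Its size depends on how signal near background is treated, since it was 2.63 with the log ratio of the scanner software and 2.61 with processed red over its 75th percentile. The lowest value over the 20 alternatives was 0.35. The second probe was above background on 2 of 10 arrays and differed by 0.11 (limma adjusted p = 0.229).

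Sequences before and after the start of transcription were taken from RefSeq (build GRCm38.p6), which held a promoter for 34 of the 43 genes, from 250 bases before the start to 50 after it. They are shown for 4 of the 5 called genes, with Col4a1 among them because it shares its start region with Col4a2. The promoter of Col5a1, whose call was lost in 13 of 20 alternatives, is not shown. In the Col24a1 window, chr3:145292222-145292521 on the plus strand, neither the TATA box (TATAAA), the CCAAT box (CCAAT) nor the GC box (GGGCGG) was found on either strand, so that no letter is in capitals. Over the 32851 promoters of 300 bases in the table, the TATA box was found in 13.6%, the CCAAT box in 37.4% and the GC box in 35.7%. A match is a match of letters and no evidence of binding.
Col24a1 promoter: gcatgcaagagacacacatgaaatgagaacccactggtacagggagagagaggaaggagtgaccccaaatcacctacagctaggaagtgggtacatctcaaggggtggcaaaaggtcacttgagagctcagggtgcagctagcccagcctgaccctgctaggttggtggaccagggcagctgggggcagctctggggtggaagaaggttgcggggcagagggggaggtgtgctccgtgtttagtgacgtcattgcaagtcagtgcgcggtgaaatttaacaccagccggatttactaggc

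The window of Col5a3, chr9:20815018-20815317 on the minus strand, held 1 CCAAT and 3 GGGCGG matches over both strands and no TATAAA. Capitals mark the matches.
Col5a3 promoter: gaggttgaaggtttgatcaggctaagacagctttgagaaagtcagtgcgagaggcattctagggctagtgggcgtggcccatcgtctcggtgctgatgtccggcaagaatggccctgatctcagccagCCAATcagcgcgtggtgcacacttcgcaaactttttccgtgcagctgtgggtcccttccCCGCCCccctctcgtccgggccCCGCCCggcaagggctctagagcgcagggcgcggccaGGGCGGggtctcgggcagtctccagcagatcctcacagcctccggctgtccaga

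The remaining fibrillar genes did not pass. Col27a1, named after its values were seen, had the lowest difference among them at -0.36 (SE 0.13, limma adjusted p = 0.15), with 0.055 in the block fit, and was called with processed red and without room air replicate 4. Col2a1, the main collagen of cartilage, was measured on 4 smoke arrays and differed by -0.06 (limma adjusted p = 0.846), and Col11a2 by 0.04.

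**Figure D3:**
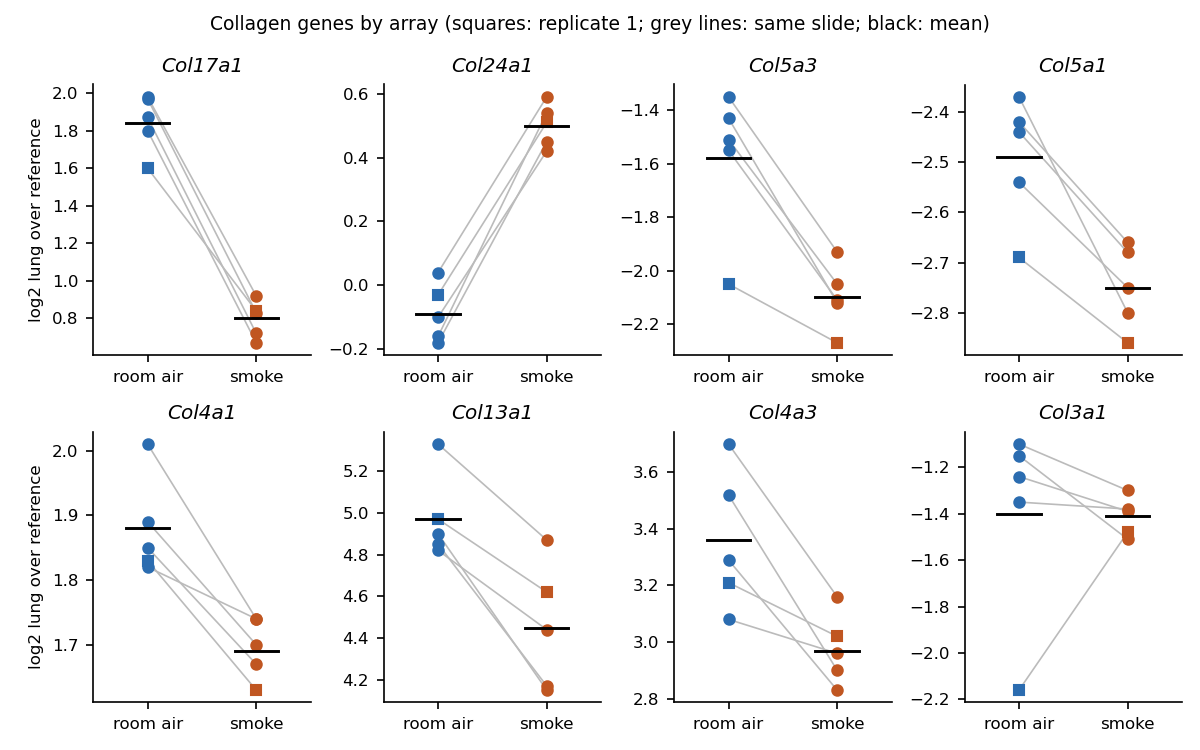
Log2 lung over reference ratio of 8 collagen genes in each array, with arrays of the same slide joined and group means as black bars. Groups do not overlap for Col17a1, Col24a1 and Col4a1, and squares mark replicate 1, whose room air array is the lowest point of Col3a1 at -2.16.

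All 8 basement membrane collagens were expressed, and Col4a1 fell. Their median difference was -0.090, and it was below 0 under each scaling tried, between -0.111 with red over its 75th percentile and -0.032 with the log ratio of the scanner software. Over all probes the median was 0.001 and -0.019 in these scalings. Within the slides the class median was 0.04, -0.21, -0.09, 0.10 and -0.18, so that 3 of 5 slides had a lower median with smoke. Leaving out 1 array moved it between -0.138 and -0.026, the latter without smoke replicate 5.

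Col4a1 and Col4a2 encode the chains of the type IV network found in nearly all basement membranes. Col4a1 read 1.83, 2.01, 1.89, 1.82 and 1.85 with room air and 1.63, 1.74, 1.70, 1.74 and 1.67 with smoke. All room air arrays were above all smoke arrays, though the distance between them was small. The difference was -0.19 (SE 0.05, limma adjusted p = 0.0430), a 1.14-fold lower ratio on 5 of 5 slides, and -0.20 without room air replicate 1. The second probe of the gene, also well above background on 10 of 10 arrays, differed by 0.04 (limma adjusted p = 0.899), and the mean of both by -0.07. The call was lost in 15 of 20 alternatives.

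Col4a2 differed by -0.09 (SE 0.10, limma adjusted p = 0.760), with the smoke array lower on 4 of 5 slides, and by -0.02 without room air replicate 2. Both genes start from a shared region and run in opposite directions. Their promoter windows overlap by 78 bases, at chr8:11312777-11312854, which stand in capitals in the window of Col4a1, chr8:11312777-11313076 on the minus strand. This window also held 1 CCAAT and 1 GGGCGG match, which are not in capitals of their own.
Col4a1 promoter: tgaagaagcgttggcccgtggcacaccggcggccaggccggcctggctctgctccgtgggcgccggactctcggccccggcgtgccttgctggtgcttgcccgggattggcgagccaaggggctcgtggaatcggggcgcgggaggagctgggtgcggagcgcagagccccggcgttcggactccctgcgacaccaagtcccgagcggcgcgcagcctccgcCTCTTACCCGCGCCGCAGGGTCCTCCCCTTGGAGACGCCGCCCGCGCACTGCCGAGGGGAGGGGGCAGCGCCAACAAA

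Col4a3, Col4a4 and Col4a5 encode the chains of a second type IV network, which is found in the alveolar and the glomerular basement membrane. Col4a3 read 3.21, 3.52, 3.70, 3.08 and 3.29 with room air and 3.02, 2.90, 3.16, 2.96 and 2.83 with smoke. The smoke arrays lay at the lower end, and 1 of them exceeded the lowest room air array. The difference was -0.39 (SE 0.11), lower on 5 of 5 slides, with a limma adjusted p of 0.0641 in the fit without a block and 0.0181 in the block fit. With the log ratio of the scanner software it was 0.03. A second probe above background on all arrays differed by -0.44 (limma adjusted p = 0.297).

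For Col4a4 the brightest probe differed by -0.09 (SE 0.13, limma adjusted p = 0.836) and the other by -0.47 (SE 0.22, limma adjusted p = 0.300), the latter with an adjusted p of 0.00657 in the block fit. Col4a5 differed by -0.13 (SE 0.10, limma adjusted p = 0.599), and by -0.22 (limma adjusted p = 0.0558) without room air replicate 1, and Col4a6, its neighbour on the X chromosome, by 0.09 (SE 0.11, limma adjusted p = 0.808). The last value was -0.01 as the mean of its probes. Without room air replicate 1, Col4a4 was at -0.04 and Col4a6 at 0.03.

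Col15a1 and Col18a1 encode collagens of the basement membrane zone, and the end fragment of the latter is endostatin, an inhibitor of vessel growth. Col18a1 read -0.59, -0.40, -0.41, -0.30 and -0.34 with room air and -0.35, -0.28, -0.22, -0.08 and -0.32 with smoke. The smoke arrays were higher on each slide and overlapped with the room air arrays. The difference was 0.16 (SE 0.07, limma adjusted p = 0.251). Col15a1 differed by 0.14 (SE 0.08, limma adjusted p = 0.409), also higher on 5 of 5 slides. It was 0.08 without room air replicate 4 and 0.41 (limma adjusted p = 0.0489) with the log ratio of the scanner software.

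Of the 24 other collagens 19 were expressed. Their median difference was -0.027, and Col17a1 alone passed. The median was lower with other scalings, at -0.106 with the log ratio of the scanner software and at -0.097 and -0.083 with the red channel alone.

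Type VI collagen forms beaded filaments around cells, and none of its 5 measured genes passed. Col6a3 read -0.56, 0.28, 0.15, 0.16 and 0.03 with room air and -0.18, -0.11, -0.18, -0.01 and -0.12 with smoke. Room air replicate 1 was the lowest array, and the other 4 room air arrays were above all smoke arrays. The difference was -0.13 (SE 0.13, limma adjusted p = 0.728), and -0.27 (limma adjusted p = 0.0179) without room air replicate 1. Col6a1 differed by 0.17 (SE 0.11, limma adjusted p = 0.482), by 0.11 without room air replicate 1 and by 0.28 (limma adjusted p = 0.0520) without room air replicate 2, and Col6a2 by -0.11 (SE 0.08, limma adjusted p = 0.551).

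The 9 fibril-associated collagens, which bind to the surface of fibrils and bridge them to other matrix, had differences from -0.11 to 0.19, with a median of 0.036. None passed. In some alternatives members of this class did, and they are named here after their values were seen. Col12a1, at -0.09, was at -0.76 (limma adjusted p = 0.0241) with the log ratio of the scanner software and at -0.81 (limma adjusted p = 0.0109) with processed red over its 75th percentile. Col22a1, at 0.19, was at 0.28 (limma adjusted p = 0.0401) without room air replicate 4.

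Col17a1 had the largest difference of all 43 genes in loess-normalized ratios, while with the log ratio of the scanner software and with processed red that of Col24a1 was larger. It encodes a transmembrane collagen of the hemidesmosome, the structure that fixes epithelial cells to their basement membrane. The ratio was 1.6, 1.87, 1.98, 1.97 and 1.80 with room air and 0.84, 0.72, 0.92, 0.83 and 0.67 with smoke. All smoke arrays were below all room air arrays, and the gap between the groups was wider than the spread in either. The difference was -1.05 (SE 0.08, limma adjusted p = 2.14e-05), a 2.07-fold lower ratio, and it was -0.76, -1.15, -1.06, -1.14 and -1.13 within the slides. In the block fit the limma adjusted p was 1e-04, and without room air replicate 1 the difference was -1.11. Over the 20 alternatives the difference lay between -1.45, with processed red over its 75th percentile, and -0.67. The second probe of the gene read 0.36, 0.36, 0.62, 0.40 and 0.44 with room air and 0.12, 0.09, 0.17, 0.19 and 0.10 with smoke. It also separated the groups, with a difference of -0.30 (SE 0.06, limma adjusted p = 0.00710).

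The red channel of the lung and the green channel of the reference can be read apart after quantile normalization between arrays. For Col17a1 the log2 red signal was 8.55 ± 0.20 with room air and 7.43 ± 0.13 with smoke (SD, n = 5), while green was 6.71 ± 0.06 and 6.64 ± 0.09. The difference lay in the lung channel. In whole lung RNA, fewer cells of a type and less RNA per cell cannot be told apart.

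The promoter window of Col17a1, chr19:47691993-47692292 on the minus strand, held 2 TATAAA matches, which begin at -140 and -91 from the start, and 1 CCAAT match at -31 on the opposite strand. Capitals mark them.
Col17a1 promoter: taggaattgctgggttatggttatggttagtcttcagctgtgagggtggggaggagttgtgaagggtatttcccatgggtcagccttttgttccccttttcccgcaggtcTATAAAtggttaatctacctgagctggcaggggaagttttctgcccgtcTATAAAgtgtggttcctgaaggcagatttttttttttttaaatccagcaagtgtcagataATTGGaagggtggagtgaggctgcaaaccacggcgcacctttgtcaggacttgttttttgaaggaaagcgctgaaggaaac

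Of the 3 remaining transmembrane collagens, Col13a1, a collagen of cell adhesion sites named after its values were seen, read 4.97, 4.90, 5.33, 4.82 and 4.85 with room air and 4.62, 4.15, 4.87, 4.44 and 4.17 with smoke. Smoke replicate 3, at 4.87, lay within the room air range, and on each slide the smoke array was lower. The difference was -0.52 (SE 0.14), with a limma adjusted p of 0.0545 in the fit without a block and 0.00260 in the block fit. With the log ratio of the scanner software Col13a1 was at -0.23 (limma adjusted p = 0.503). Its second probe differed by -0.47 (SE 0.18, limma adjusted p = 0.183, and 0.0133 in the block fit). Col25a1 differed by 0.10 and Col23a1 by 0.12 at its brightest probe, while another probe of Col23a1 rose by 0.29 (SE 0.07, limma adjusted p = 0.0289).

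**Figure D4:**
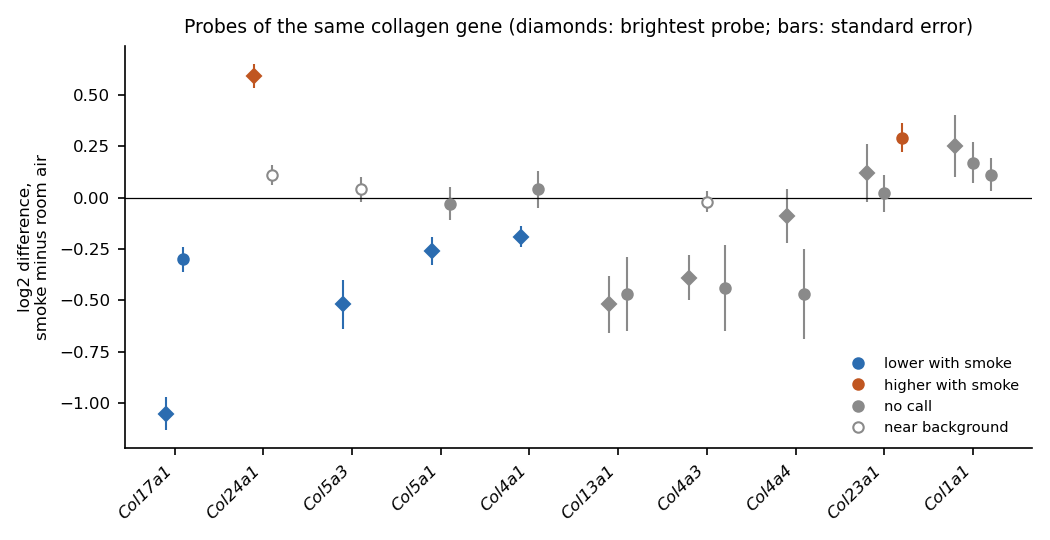
Difference in the log2 lung over reference ratio, smoke minus room air, for each probe of 10 collagen genes, with limma's standard error as bars. Both probes of Col17a1 fell, whereas the second probes of Col5a3, Col5a1 and Col4a1 lie between -0.03 and 0.04, and open points are probes near background.

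Of the 6 short-chain, anchoring and remaining collagens none passed. Col7a1, whose protein forms the anchoring fibrils that tie the epithelial basement membrane to the tissue below, differed by -0.20 (SE 0.09, limma adjusted p = 0.290) and was lower on 5 of 5 slides. Col8a1, a short-chain collagen named after its values were seen, read -2.26, -2.25, -2.42, -2.25 and -2.53 with room air and -2.23, -2.13, -2.19, -1.93 and -2.23 with smoke. The groups did not overlap, by a narrow margin. The difference was 0.20 (SE 0.08, limma adjusted p = 0.181).

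Collagen chains are hydroxylated, glycosylated and folded in the endoplasmic reticulum. Of 24 genes for these steps 4 fell and 1 rose (20.8%, against 8.23% of all genes), with a median difference of -0.032. In the block fit, in which 13.8% of all genes passed, 5 were lower and 3 higher. Most members of this and the later lists were expressed, and over all expressed genes 11.9% passed, and 20.0% in the block fit. Serpinh1, the collagen chaperone, read -0.34, -0.29, 0.26, 0.00 and 0.30 with room air and -0.57, -0.37, -0.40, -0.51 and -0.55 with smoke. All smoke arrays were below all room air arrays, with a difference of -0.46 (SE 0.12, limma adjusted p = 0.0444), and the call was lost in 13 of 20 alternatives. Plod2, the lysyl hydroxylase that prepares crosslinks, fell by 0.39 (limma adjusted p = 0.0311), and Sparc, a collagen-binding matricellular protein, by 0.27 (limma adjusted p = 0.0352). The galactosyltransferase genes went opposite ways, with Colgalt2 at -0.72 (SE 0.16, limma adjusted p = 0.0223) and Colgalt1 at 0.39 (SE 0.07, limma adjusted p = 0.00368). With 1 array left out at a time, Colgalt1 was called in all 10 fits. Colgalt2 and Plod2 were called in 4 each, and Serpinh1 and Sparc in 2 each.

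Of 13 genes for procollagen cleavage and crosslinking, 2 fell and 1 rose (23.1%, against 8.23% of all genes), with a median of -0.071. In the block fit 4 were lower and 1 higher (38.5%, against 13.8% of all genes). Pcolce2 and Pcolce, enhancers of the protease that removes the end of procollagen, fell by 0.44 (limma adjusted p = 0.00154) and by 0.38 (limma adjusted p = 0.00798). Lox, the lysyl oxidase that starts crosslinking, read -2.61, -2.84, -3.18, -3.15 and -3.17 with room air and -2.51, -2.18, -2.44, -2.32 and -2.01 with smoke. Every smoke array was above every room air array. The difference was 0.70 (SE 0.13, limma adjusted p = 0.00605).

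Of 20 proteoglycans and other partners that bind fibrils or basement membranes, 4 fell and none rose (20.0%, against 8.23% of all genes), and 17 had a difference below 0, with a median of -0.179. In the block fit 8 were lower (40.0%, against 13.8% of all genes), and the 4 added, Lama4, Aspn, Nid2 and Nid1, are named after their values were seen. Ogn, the small proteoglycan osteoglycin, read 0.97, 2.15, 1.48, 1.5 and 1.48 with room air and 0.54, 0.84, 0.56, 0.96 and 0.51 with smoke. The smoke arrays were all lower, with room air replicate 1 the nearest to them, and the difference was -0.84 (SE 0.18, limma adjusted p = 0.0155). Dcn, decorin, which coats type I fibrils, fell by 0.49 (limma adjusted p = 0.0107), and Postn, periostin, and Prelp each fell by 0.31 (limma adjusted p = 0.0263 and 0.0340). With 1 array left out at a time, Ogn and Dcn were called in all 10 fits, Postn in 4 and Prelp in 3.

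Among 11 collagen receptors 1 fell and 3 rose (36.4%, against 8.23% of all genes), and in the block fit 2 were lower and 3 higher (45.5%, against 13.8%). Ddr2, the discoidin receptor of mesenchymal cells, fell by 0.34 (limma adjusted p = 0.00506), while Ddr1, its epithelial relative, rose by 0.27 (limma adjusted p = 0.0227). Lair1, an inhibitory receptor of leukocytes, rose by 0.68 (limma adjusted p = 0.00991) and Mrc1, the macrophage mannose receptor, by 1.14 (limma adjusted p = 0.00115). Among 18 ligands, receptors and targets of TGF-beta, the best known inducer of collagen genes, 1 fell and 2 rose (16.7%). In the block fit 1 was lower and 4 higher (27.8%). All 18 were expressed, and of all expressed genes 11.9% passed, and 20.0% in the block fit. Ltbp4, which holds latent TGF-beta in the matrix, fell by 0.40 (limma adjusted p = 0.0381), and Tgfbr1 and Tgfbi rose by 0.61 (limma adjusted p = 0.000418) and 0.58 (limma adjusted p = 0.00802).

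**Figure D5:**
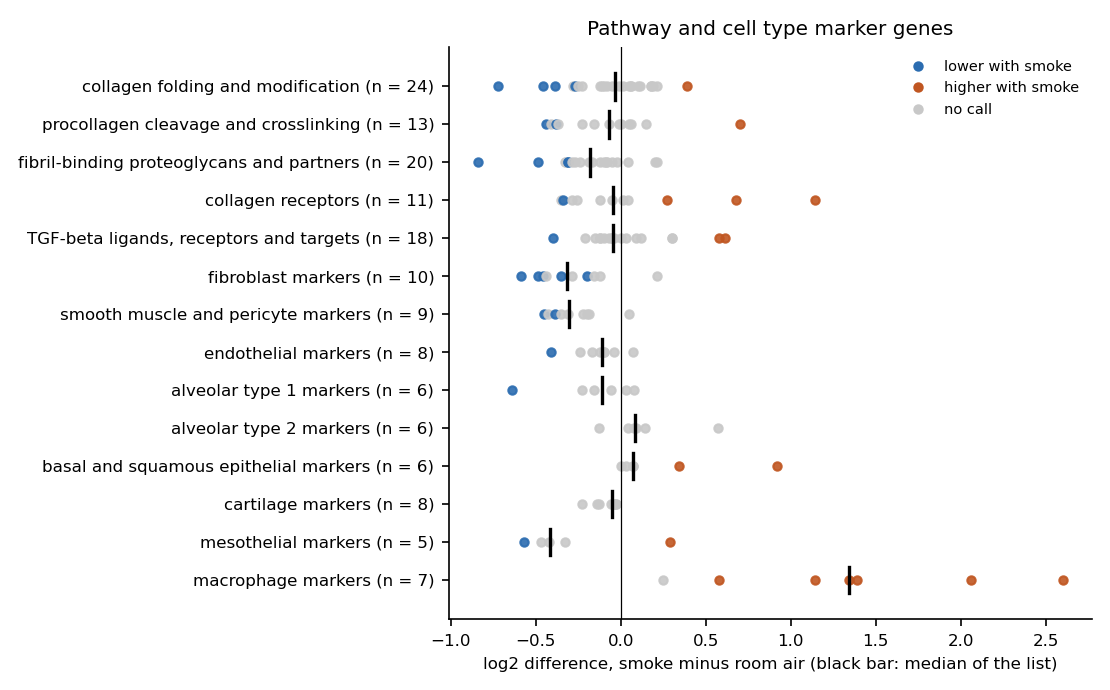
Difference in the log2 lung over reference ratio, smoke minus room air, for each gene of 5 pathway lists and 9 cell type marker lists, with the median of a list as a black bar. The medians of fibroblast and macrophage markers lie at -0.318 and 1.341, beside -0.009 over all expressed genes.

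Markers of cell types stand beside these results. Of 10 fibroblast markers 5 fell and none rose (50%, against 8.23% of all genes), with a median of -0.318, and 5 were lower in the block fit too. Gsn, the brightest, fell by 0.59 (limma adjusted p = 0.00653; -0.21 and 0.599 with processed red), Pdgfra by 0.49 (limma adjusted p = 5.95e-05), Pdgfrb by 0.46 (limma adjusted p = 0.000548), Tcf21 by 0.35 (limma adjusted p = 0.0492) and Fbln1 by 0.20 (limma adjusted p = 0.0345). Tcf21 was at 0.01 with the log ratio of the scanner software. With 1 array left out at a time, Gsn, Pdgfra and Pdgfrb were called in all 10 fits, Fbln1 in 3 and Tcf21 in 1. The summed red signal of the list, after quantile normalization, was 530000, 540000, 539000, 464000 and 531000 with room air and 396000, 346000, 372000, 381000 and 361000 with smoke. All smoke arrays were below all room air arrays. Such sums, here and for the later lists, are of red alone, without the reference, and weigh bright genes most. Gsn and Inmt, at a mean log2 red of 17.9 and 17.34, made up most of this one, with Pdgfrb next at 12.94. Inmt did not pass (limma adjusted p = 0.367), so the sum says little about the other markers. None of the 10 markers was at background on all arrays, and the part of these cells in the collagen results was not tested.

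Of 9 smooth muscle and pericyte markers 2 fell (22.2%, against 8.23% of all genes), Acta2, the brightest, by 0.45 (limma adjusted p = 0.00897) and Notch3 by 0.39 (limma adjusted p = 0.00607), with a median of -0.306. Acta2 was at -0.17 (limma adjusted p = 0.0415) as the mean of its probes and at -0.39 (limma adjusted p = 0.170) with processed red. Of the 9, 6 were lower in the block fit (66.7%, against 13.8% of all genes). Their summed red signal was 64000, 65400, 60900, 65100 and 63100 with room air and 46500, 48800, 53000, 45000 and 51000 with smoke. The groups were apart in this sum, whose part in the results was not tested. Of 5 mesothelial markers 2 passed (40.0%, against 8.23% of all genes). Upk3b fell by 0.57 (limma adjusted p = 0.00221) and Krt19, the brightest and also an epithelial keratin, rose by 0.29 (limma adjusted p = 0.00471). In the block fit 4 of them were lower and 1 higher, where 13.8% of all genes passed. Their summed red signal was 25700, 33200, 25300, 33500 and 28500 with room air and 28300, 33900, 24600, 32600 and 28200 with smoke, with the groups overlapping.

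Basal cells and other epithelial cells carry Col17a1 in hemidesmosomes. Of 6 basal and squamous markers none fell and 2 rose (33.3%, against 8.23% of all genes), Krt15 by 0.92 (limma adjusted p = 0.00567) and Perp, the brightest, by 0.34 (limma adjusted p = 0.0299). Their summed red signal was 2090, 1920, 2140, 2160 and 1840 with room air and 2790, 2480, 2880, 2680 and 2580 with smoke, so that it was higher in each smoke array. Perp was called in 4 of the 10 fits that leave out an array, and Krt15 in all 10. Trp63, Krt14 and Krt5 did not pass, and Krt5 read 1.33 in room air replicate 1, with the other room air arrays between -0.07 and 0.22. The part of these cells in the value of Col17a1 was not tested. Dsg3 was above background on 0 of 10 arrays. Of 6 alveolar type 1 markers 1 fell (16.7%, against 8.23% of all genes and 11.9% of expressed genes), Cav1, the brightest, by 0.64 (limma adjusted p = 0.00110). In the block fit, in which 20.0% of expressed genes passed, Aqp5 was lower as well (limma adjusted p = 0.0266). Rtkn2, Hopx, Ager and Pdpn, at -0.16, -0.06, 0.03 and 0.08, did not pass, and the median of the 6 markers was -0.109. Their summed signal was 194000, 209000, 229000, 194000 and 214000 with room air and 149000, 137000, 158000, 149000 and 154000 with smoke. This sum was lower in every smoke array. It takes red alone, so it is another measure than the ratios, whose median difference was -0.109. The part of the sum in the results was not tested. None of the 6 alveolar type 2 markers passed, though Sftpd did in the block fit, at 0.57 (adjusted p = 0.0441, higher on 5 of 5 slides). Sftpc, the brightest, was saturated on 1 array, which limits its value of -0.13 (limma adjusted p = 0.838) and the sum of the list. The value was 0.16 with processed red over its 75th percentile. The summed signal of the list was 978000, 900000, 898000, 882000 and 882000 with room air and 1030000, 979000, 1080000, 969000 and 1030000 with smoke, with overlap.

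Of 8 endothelial markers, all expressed, 1 fell (12.5%, against 8.23% of all genes and 11.9% of expressed genes), Pecam1 by 0.41 (limma adjusted p = 0.0488). Pecam1 was called in 3 of the 10 fits that leave out an array. Tek was lower as well in the block fit (limma adjusted p = 0.0159). The median was -0.110, with Cldn5, the brightest, at -0.12 (limma adjusted p = 0.654). With the red channel alone Cldn5 was at -0.75 (limma adjusted p = 0.0110) after scaling to the 75th percentile and at -0.82 (limma adjusted p = 0.00101) after quantile normalization. Their summed signal, of red alone, was 124000, 136000, 156000, 143000 and 141000 with room air and 91900, 90000, 102000, 91300 and 92400 with smoke. It was lower in every smoke array, but it is another measure than the ratios, whose median difference was -0.110. The part of the sum in the results was not tested. Cartilage markers can show airway cartilage in a lung sample. None of the 8 passed, 3 were above background on 0 arrays, and Comp, the brightest, differed by -0.13 (limma adjusted p = 0.682), and by 0.00 (limma adjusted p = 0.985) without room air replicate 1. Their summed signal was 808, 634, 635, 661 and 644 with room air and 648, 631, 597, 650 and 625 with smoke, with room air replicate 1 the highest.

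Macrophage markers moved furthest. Of 7, none fell and 6 rose (85.7%, against 8.23% of all genes), with a median of 1.341. Marco, the brightest, rose by 2.60 (limma adjusted p = 0.00248), Cd68 by 2.06 (limma adjusted p = 6.92e-09), Adgre1 by 1.39 (limma adjusted p = 8.40e-07), Itgax by 1.34 (limma adjusted p = 2.56e-07) and Csf1r by 0.58 (limma adjusted p = 0.00128), beside Mrc1, which the receptor list holds too. The summed red signal of the list was 11200, 9190, 8290, 7810 and 9640 with room air and 34600, 35700, 38400, 36700 and 38500 with smoke, and the groups were far apart. The part of these cells in the collagen results was not tested.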

How the data were processed

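For every array the authors deposited a scanner file, which per the file headers was written by version 9.5.3.1 of Agilent's Feature Extraction and holds, for both channels, intensity and background, flags (other values) and a log10 ratio of red over green. The submitters' processing notes name version 9.1, and the labels name a single dye, Cy3. A deposited table of log2 values equals, within 1e-04, the mean log2 of both background-subtracted channels of the array with the same number in the other group (286449 of 286449 values), so its group order opposes that of the scanner files; it was not used for results. How the authors normalized is not given beyond limma.

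Mean intensities were corrected with normexp (offset 50) against median background and normalized by loess within each array in limma 3.58.1 (R 4.3.3). Controls and outlier spots (83 to 144 per array) were left out, and spots of a probe were averaged. A gene was represented by its probe with the brightest red signal; 28 of the 43 collagen genes had several probes (82 in all). Of 41174 probes, 22951 were named through accessions in the RefSeq gene table, 6659 by current symbol, 3109 by synonym and 8455 by the name in the file. Groups were compared with lmFit and eBayes, two-sided, with Benjamini-Hochberg adjustment over 41173 probes, all of them in the test, where 2906 passed 0.05. Fold changes are antilogs of differences. The steps were tested on simulated data. An exact Wilcoxon test was an alternative.

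The 5 slides each held the smoke and room air arrays of 1 replicate number. Every smoke array lay at place 1 of its slide and every room air array at place 2. Place therefore went with exposure on each slide, and its part in the results was not tested. Deviations from the group mean went together between arrays that share a number (correlations across probes 0.157, 0.46, 0.461, 0.55 and 0.415). Different numbers gave -0.124 in the median and up to 0.205, above the value of number 1. The number stands for a shared slide, and the labels give no pairing of mice. It was a block in an alternative. The 20 alternatives also changed the scan day, background correction, normalization, channel, probe filter and probe averaging, and left out each array. Named were called collagens, the main fibrillar, type IV, type VI, XV and XVIII genes, called members of each list and the brightest marker. Members and lists were chosen with earlier results of these data known. Col6a5, Adamts14 and Hspg2 were not measured. Promoters of Col1a1, Col2a1, Col4a3, Col5a2, Col9a3, Col12a1, Col14a1, Col22a1 and Col26a1 were not analysed here. Figures were drawn with matplotlib.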

Additional observations from a re-analysis of the deposited data

Results flagged for a closer look

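In 10 of 154 groups of 5 arrays, taken over the named genes and the 3 class medians, 1 array lay far from the others by Dixon's ratio; chance alone gives about 1 in 20. Over all 43 collagen genes it was 6 of 86 groups. Room air replicate 1 was the array in 4 of the 10. There Col5a3 read -2.05, with the other room air arrays between -1.55 and -1.35, and Col3a1 read -2.16, with the others between -1.35 and -1.10. The same array read 0.95 for Comp, with the others between 0.25 and 0.44, and 2.31 for Mmp8, with the others between 0.99 and 1.14.

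In room air replicate 2, Plod2 read -0.65, above the range of -0.91 to -0.85 in the others. In the smoke group, Comp read 0.43 in replicate 1, with the others between 0.28 and 0.31. Mrc1 read 5.15 in replicate 3, with the others between 4.28 and 4.43. Replicate 4 was the lowest for Marco at 4.97, with the others between 5.92 and 6.13, and for Ctsk at 4.56, with the others between 4.83 and 4.92. Pdgfra read 0.84 in replicate 5, with the others between 0.71 and 0.74.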

How the results depend on the processing

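Col17a1 and Col24a1 were called in 19 of 20 alternatives, all but the exact Wilcoxon test, Col5a3 in 11, Col5a1 in 7 and Col4a1 in 5. None of the 5 changed direction. Quantile normalization of the average intensity after loess is 1 of the 20 and leaves ratios as they are, so its calls could not differ. The exact Wilcoxon test called 0 probes and 0 collagen genes, 0 lower and 0 higher, because its smallest p with 5 against 5 arrays is 0.00794, which adjusts to 0.115; without adjustment 5446 probes and 8 collagen genes had a p under 0.05. With the replicate number as a block, 5019 probes were called, against 2906 without, and the 7 collagen genes were the same 5 with Col13a1 and Col4a3; it changed the call of no other collagen gene. Processed red over its 75th percentile called 1759 probes.

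With the probes of each gene averaged, 3 collagen genes were called, 2 lower and 1 higher, and Col3a1 was at 0.04 and Col4a6 at -0.01. The log ratio of the scanner software called 5 collagen genes, Col24a1 and Col15a1 higher and Col17a1, Col5a3 and Col12a1 lower, and processed red called 4, with Col12a1 and Col27a1 beside Col17a1 and Col24a1. It put the median of the other collagens at -0.106, against -0.097 with processed red and -0.083 with quantile-normalized red, and Col4a3 at 0.03 and Tcf21 at 0.01. With red alone Col3a1 was at 0.04 and 0.02, and Sftpc at 0.16 with processed red.

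With 1 array left out at a time, 2102 to 3660 probes were called, and 2 to 7 collagen genes, 1 to 6 lower and 1 to 2 higher. The 2 calls that remained each time were Col17a1 and Col24a1. Without room air replicate 2, 3 or 5 or smoke replicate 1, 2 were called, without smoke replicate 2, 3, 4 or 5, 3, without room air replicate 4, 6, and without room air replicate 1, 7. The median of the other collagens lay between -0.057 and 0.011. Col3a1 lay between -0.20 and 0.06, Col1a2 was at -0.08 without room air replicate 1, and Sftpc lay between -0.26 and 0.02, the latter without smoke replicate 4. Among genes of the lists, calls were lost in 13 of 20 alternatives for Serpinh1 and Sparc, in 12 for Prelp and Tcf21, in 11 for Pecam1, in 10 for Fbln1, Postn and Ltbp4, in 9 for Perp and Colgalt2 and in 8 for Plod2 and Ddr1. Cldn5 was called lower in 2. Over the 20 alternatives the difference of Dcn lay between -0.54 and -0.24, and that of Postn between -0.41 and -0.14. That of Mmp13 lay between 0.60 and 1.34, and that of Itgax between 0.91 and 2.12. The cause of these shifts was not tested. Signal over background, a median of 1.68 to 2.82 in red per array, limits values of dim probes such as Col24a1.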

Other observations

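Enzymes that cut collagen, a list chosen after the data had been seen, were higher with smoke in part. Of 10 such genes 6 rose and none fell at an adjusted p under 0.05 in limma (60%, against 8.23% of all genes). The list holds Mmp12, which the study itself picked from these samples, so its count is not independent evidence of a direction. Ctsk, cathepsin K, which cleaves the collagen helix, read 2.21, 1.85, 2.30, 1.52 and 2.20 with room air and 4.92, 4.83, 4.90, 4.56 and 4.86 with smoke, a difference of 2.80 (SE 0.14, limma adjusted p = 6.64e-07). Mmp12, the elastase of macrophages, read -0.26, -0.03, -0.16, -0.18 and -0.08 with room air and 2.05, 1.96, 2.71, 2.00 and 2.24 with smoke, a difference of 2.33 (limma adjusted p = 1.66e-06), and of 4.75 with the log ratio of the scanner software and 5.22 with processed red. Mmp8, the collagenase of neutrophils, differed by 1.16 (SE 0.26, limma adjusted p = 0.0210), with room air replicate 1 inside the smoke range, and its call was lost in 6 of 20 alternatives. Ctsb rose by 1.02 (limma adjusted p = 0.000150), Mmp13, another collagenase, by 0.65 (limma adjusted p = 0.00512) and Ctsl by 0.60 (limma adjusted p = 0.000266). Mmp2, Mmp14 and Fap, which mesenchymal cells make, did not pass, nor did Mmp9, which read 0.20 in room air replicate 1 and -1.14 to -0.88 in the other room air arrays.

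Proteins that hold a collagen-like stretch without being collagens were listed in the same way, with values of Marco known. Of 23 genes 6 rose and 1 fell (30.4%, against 8.23% of all genes), with a median of 0.005, and in the block fit 7 were higher and 2 lower (39.1%, against 13.8% of all genes). Besides Marco these were Msr1, a macrophage scavenger receptor, at 2.10 (SE 0.24, limma adjusted p = 0.000291), the complement genes C1qb, C1qa and C1qc at 1.32, 0.78 and 0.56 (limma adjusted p = 0.00428, 0.00633 and 0.00397), and Fcna, a ficolin, at 0.42 (limma adjusted p = 0.0191). Colec10, a collectin, fell by 0.31 (limma adjusted p = 0.00556), and was at -1.32 both with the log ratio of the scanner software and with processed red. The surfactant collectins Sftpa1 and Sftpd differed by 0.09 and 0.57 (limma adjusted p = 0.895 and 0.438) and did not pass. Sftpd did in the block fit (adjusted p = 0.0441), with smoke higher on 5 of 5 slides. With the log ratio of the scanner software C1qa was at 0.19 (limma adjusted p = 0.669) and C1qc at 0.28 (limma adjusted p = 0.218), and with processed red at 1.95 and 1.87.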
